A study of Mus musculus with 12 samples.

Results

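The mitosis genes are 52 genes, most of which act from the G2 phase to the separation of daughter cells. They were picked by symbol from the 16353 genes of the deposited count table, and all 52 were found there. The 12 libraries held RNA of splenic CD8 T cells of the CBA/J background sorted to 95% purity for CD8 and for KB5, a transgenic T cell receptor that recognizes an H2b antigen of C57BL/6 mice, with 3 libraries in each of 4 groups. Naive cells came from untreated mice, and activated cells from mice given a donor-specific transfusion (DST), an intravenous dose of 10000000 C57BL/6 spleen cells. Tolerized cells came from mice given DST and 0.5 mg of anti-CD154, an antibody to CD40 ligand that blocks costimulation, and inflamed cells from mice given DST, anti-CD154 and 100 ug of LPS, a bacterial endotoxin. Spleens were taken 12 hours after treatment. The stated purpose was to find the expression changes brought about by costimulation blockade. How many mice gave a library is not given in the sources used here, so p-values measure the spread between libraries, which may be technical.

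Most genes of this set are switched on late in the cell cycle, when the transcription factors B-MYB and FOXM1 work with the MuvB complex on promoters that carry CHR and CCAAT elements. Their products condense the chromosomes, build the spindle, hold the spindle checkpoint and cleave the cell, and many are then destroyed by the anaphase-promoting complex. Naive T cells rest outside the cycle, and after contact with antigen they grow and replicate their DNA before their first division. In bulk RNA, fewer cycling cells and less RNA of these genes per cell cannot be told apart.

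The widest differences in these genes lay inside the tolerized group. The median mitosis gene stood at 3.78, 10.8 and 31.7 CPM (counts-per-million, with library sizes adjusted by trimmed means) in tolerized libraries 1, 2 and 3. It stood at 3.66 to 4.01 CPM in the activated libraries, at 3.13 to 3.68 CPM in the inflamed ones and at 2.51, 2.65 and 5.31 CPM in naive libraries 1 to 3. Of the 52 genes, 51 had their highest level in tolerized library 3, as did 7.48% of the 12499 genes tested, and the exception was Kif23, which was highest in naive library 3. In 49 genes both tolerized libraries 2 and 3 lay above all 6 activated and inflamed libraries, a pattern found in 6.69% of all tested genes, and the exceptions were Kif20b, Kif23 and Smc4. Tolerized library 1 lay within the range of the activated libraries in 25 of the 52 genes, against 54.7% of all tested genes.

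**Figure D1:**
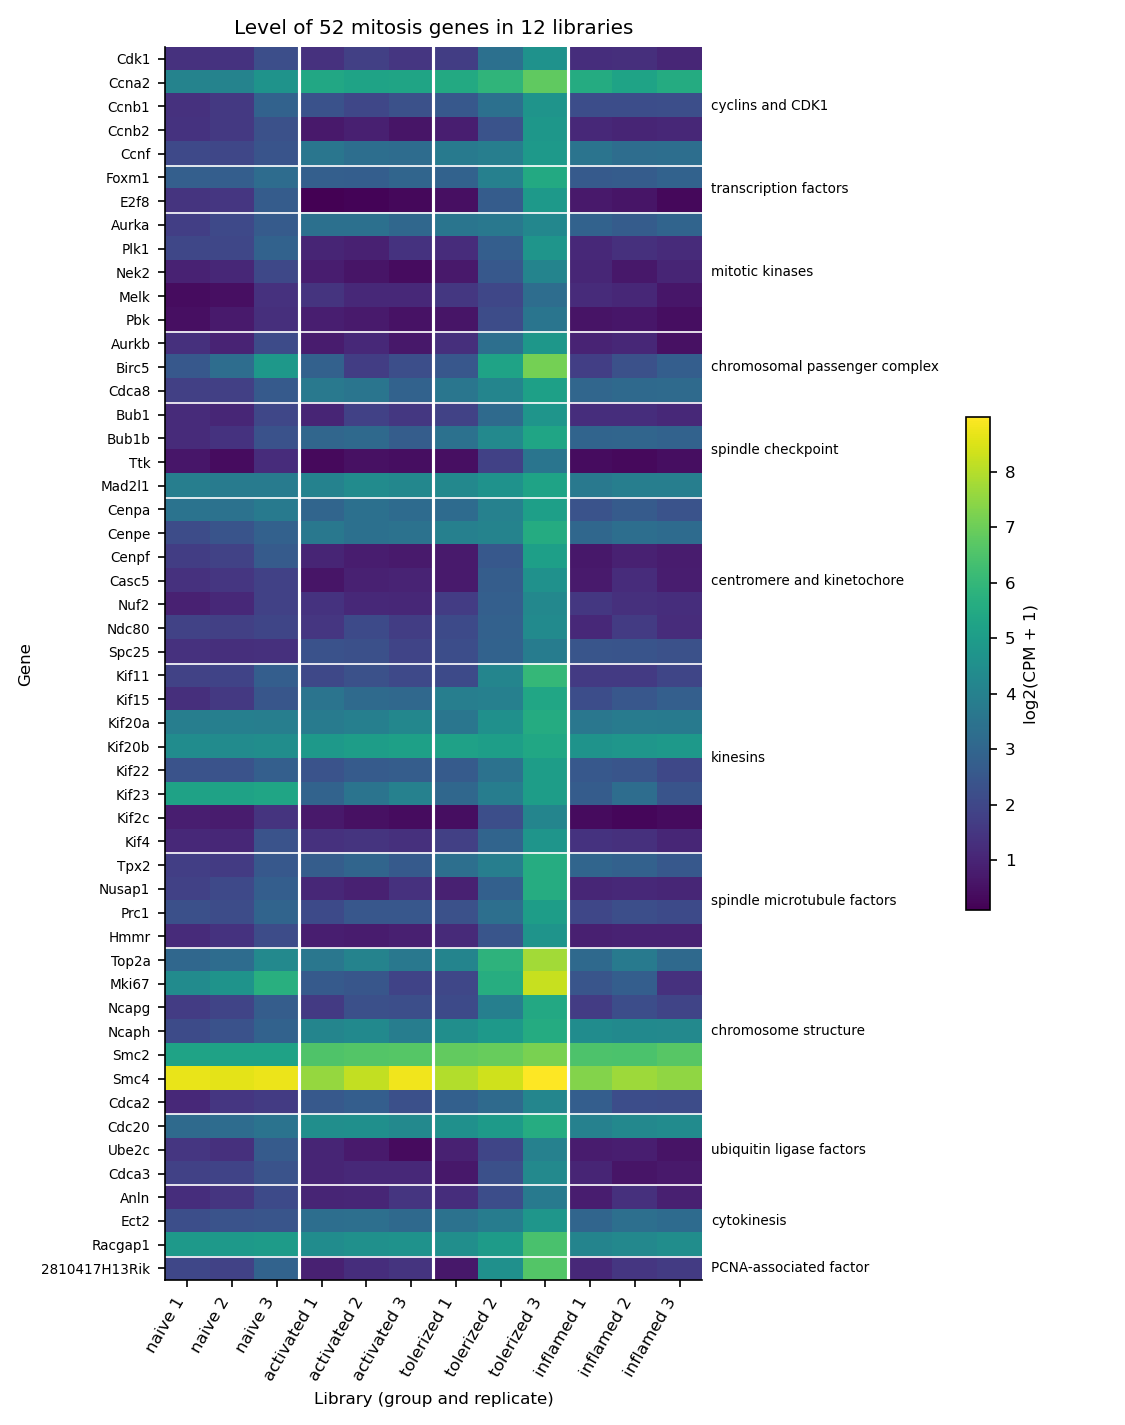
Level of each of the 52 mitosis genes, as log2(CPM + 1) by colour, in the 12 libraries (columns), with genes (rows) grouped by role. The column of tolerized library 3 is the brightest for 51 of the 52 genes, and the bright row of Smc4 spans all libraries.

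Between tolerized libraries 3 and 1 the ratio of CPM had a median of 7.40 over the 52 genes, against 0.995 over all genes with reads. It ran from 1.16 for Kif20b, a kinesin of late cytokinesis, to 159 for 2810417H13Rik, the gene of PCLAF, a small protein that binds the replication clamp PCNA. It was above 2 for 49 of the 52 genes, against 14.1% of all genes. Library 2 over library 1 had a median of 2.27, and library 3 over library 2 a median of 3.04. No such gap was seen between libraries of the activated group, where the medians of the 3 ratios were 1.09, 1.001 and 0.919, or of the inflamed group, where they were 1.07, 1.04 and 0.928.

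**Figure D2:**
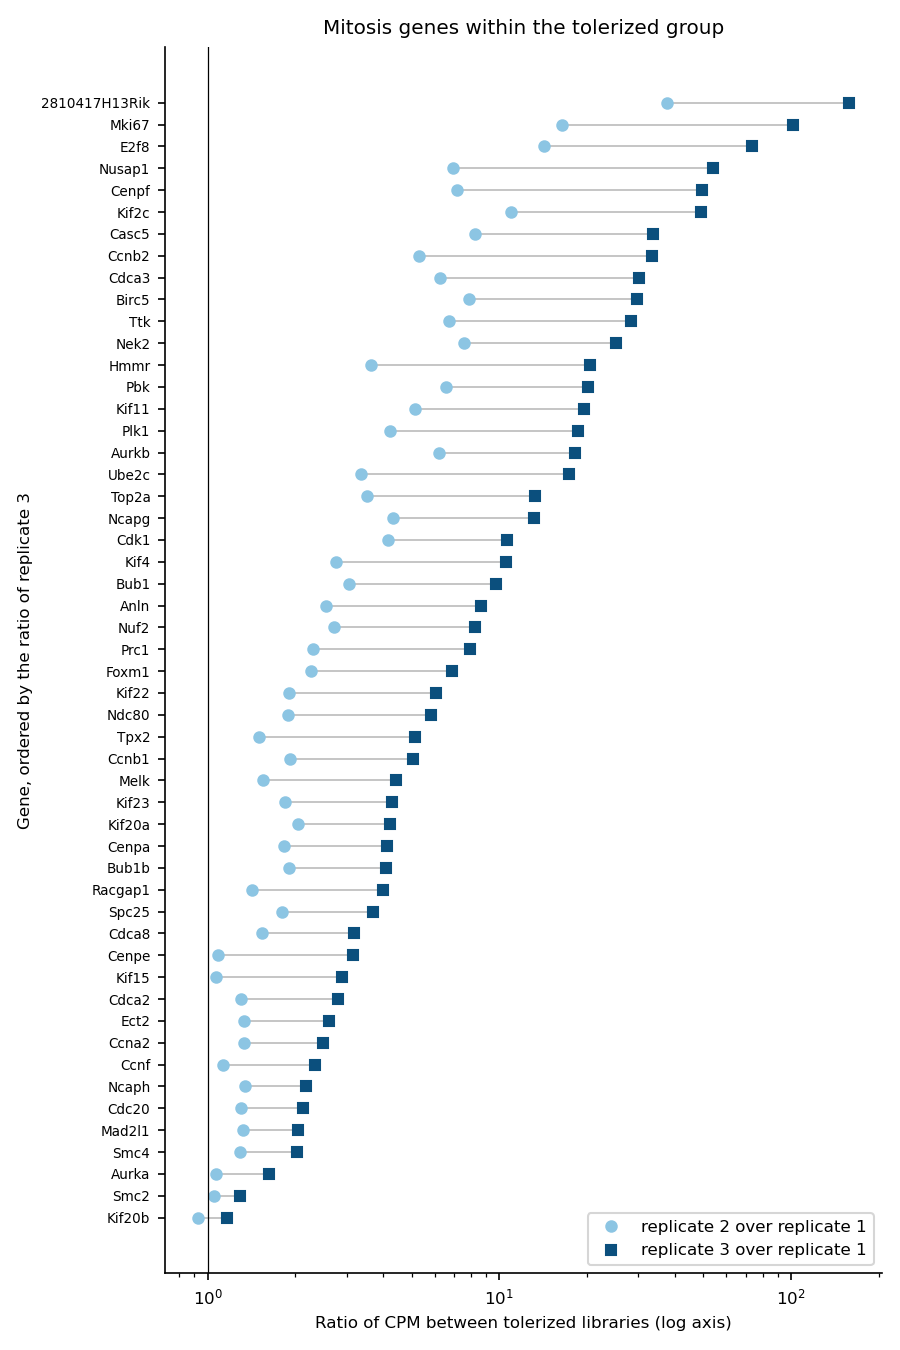
Ratio of CPM in tolerized library 2 (circles) and library 3 (squares) to that in tolerized library 1 for each mitosis gene, on a log axis; the line marks equal levels. Library 3 lies to the right of library 2 for every gene, from 1.16 for Kif20b to 159 for 2810417H13Rik.

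The libraries held 29.3 to 84.5 M reads in genes, and tolerized libraries 1, 2 and 3 held 29.3, 46.1 and 35.5 M. The part of depth in the result was not tested. A list of 11 T cell genes summed to 5215 to 6375 CPM in the naive libraries and to 3145 to 4554 CPM in the 9 others. Against naive, 9, 8 and 7 of the 11 were called lower in activated, tolerized and inflamed cells, and 1 was called higher in each. Of 14 B cell and plasma cell markers 14, 13 and 13 were called lower against naive, and of 17 erythroid markers all 17 in each group. Of all tested genes 35.3%, 35.9% and 35.5% were called lower. So were 11, 16 and 13 of 18 monocyte and macrophage markers, 7, 7 and 7 of 10 dendritic cell markers and 3, 3 and 1 of 10 tested neutrophil markers. All 5 tested NK cell markers were called lower in each group. In inflamed cells 5 neutrophil markers, 1 dendritic cell marker and 1 monocyte and macrophage marker were called higher. The part of these differences in the comparisons with naive cells was not tested. Markers of other cells were present in all groups. In tolerized libraries 1, 2 and 3 the 14 B cell and plasma cell markers summed to 236, 337 and 427 CPM, the 12 neutrophil markers to 3.12, 4.15 and 12.8 CPM, with Elane at 0 reads in all 3, the 10 dendritic cell markers to 79.2, 92.2 and 116 CPM, the 7 platelet and megakaryocyte markers to 3.23, 3.44 and 7.83 CPM, and the 11 T cell genes to 3504, 3531 and 4069 CPM. These lists move with the mitosis genes there, and their part in the result was not tested. The 18 monocyte and macrophage markers went the other way, at 179, 148 and 63.9 CPM, and the 17 erythroid markers stood at 64.6, 170 and 62.5 CPM. A list of 10 genes of resting T cells, added after the values were seen, summed to 2122, 2028 and 2603 CPM.

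The promoters of these genes share letters that the choice of genes did not use. A window of 250 bases before the start of transcription was at hand from RefSeq (GRCm38.p6) for 44 of the 52 genes, counted from the start in that table. That start is the outer end of the gene in 24 windows and lies inside the gene in 20, by up to 3852 bases (Kif2c). The genes Ccna2, Foxm1, Pbk, Aurkb, Kif20a, Tpx2, Smc4 and Cdca2 had no window. Both strands were searched for TTTGAA and TTCGAA, the letters of the CHR element, and for CCAAT, the letters bound by NF-Y. Either CHR form was found in 16 of the 44 windows, or 36.4%, against 17.5% of all 27025 windows. CCAAT was found in 32 windows, or 72.7%, against 34.5% of all, and both kinds of letters in 14 windows, or 31.8%, against 6.23%. Among the 12978 windows of genes in the count table the shares were 13.1% for either CHR form, 36.2% for CCAAT and 5.09% for both. A match is a description of letters and not of a site in use. The 6 windows shown belong to genes whose levels are given below and that hold CHR letters, with CHR letters and CCAAT (or their reverse complements, TTCAAA and ATTGG) in capitals, 5′ to 3′ on the strand of the gene. They are Smc2 (chr4:52438971-52439220, plus strand), Cdc20 (chr4:118437344-118437593, minus strand), Ccnf (chr17:24251410-24251659, minus strand), Bub1b (chr2:118597961-118598210, plus strand), Ect2 (chr3:27153879-27154128, minus strand) and E2f8 (chr7:48881597-48881846, minus strand).
Smc2: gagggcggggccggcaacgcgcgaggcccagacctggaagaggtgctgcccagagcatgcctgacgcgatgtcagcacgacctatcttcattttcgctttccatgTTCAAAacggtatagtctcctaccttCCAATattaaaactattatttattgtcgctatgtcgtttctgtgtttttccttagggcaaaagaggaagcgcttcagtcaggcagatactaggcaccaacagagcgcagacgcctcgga
Cdc20: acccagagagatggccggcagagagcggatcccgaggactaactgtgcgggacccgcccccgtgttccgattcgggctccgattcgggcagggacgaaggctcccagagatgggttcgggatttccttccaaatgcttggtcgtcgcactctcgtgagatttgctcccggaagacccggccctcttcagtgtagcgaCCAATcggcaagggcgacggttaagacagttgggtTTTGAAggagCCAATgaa
Ccnf: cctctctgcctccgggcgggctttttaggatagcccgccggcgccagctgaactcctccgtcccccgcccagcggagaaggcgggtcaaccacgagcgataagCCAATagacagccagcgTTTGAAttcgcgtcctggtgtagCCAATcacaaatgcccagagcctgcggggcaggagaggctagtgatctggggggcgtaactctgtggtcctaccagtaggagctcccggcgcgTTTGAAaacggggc
Bub1b: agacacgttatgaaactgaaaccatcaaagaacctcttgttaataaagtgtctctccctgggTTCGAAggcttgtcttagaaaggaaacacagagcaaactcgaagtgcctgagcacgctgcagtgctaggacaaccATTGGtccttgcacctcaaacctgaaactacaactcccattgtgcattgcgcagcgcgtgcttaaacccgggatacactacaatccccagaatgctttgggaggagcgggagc
Ect2: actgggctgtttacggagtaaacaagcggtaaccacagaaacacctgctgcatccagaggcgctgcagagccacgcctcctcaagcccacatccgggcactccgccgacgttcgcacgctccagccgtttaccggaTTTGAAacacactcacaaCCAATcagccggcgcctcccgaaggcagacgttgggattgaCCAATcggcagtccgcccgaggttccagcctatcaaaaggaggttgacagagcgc
E2f8: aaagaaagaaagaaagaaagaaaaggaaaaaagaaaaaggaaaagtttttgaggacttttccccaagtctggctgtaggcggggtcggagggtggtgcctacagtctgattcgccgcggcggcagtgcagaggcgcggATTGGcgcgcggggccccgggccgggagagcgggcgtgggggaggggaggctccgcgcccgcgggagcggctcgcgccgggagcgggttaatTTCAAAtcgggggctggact
In Cdc20 the CHR letters begin 18 bases before the start used, in Ccnf 14 bases and again 130 bases before it, and in E2f8 20 bases before it. In Ect2, Smc2 and Bub1b they begin farther off, at 114, 145 and 188 bases before it. The start used for E2f8 lies 477 bases inside the gene, that for Ect2 375 bases and that for Bub1b 9 bases, so these windows hold sequence of the gene itself. The ratio of tolerized library 3 to library 1 had a median of 11.9 over the 16 genes with CHR letters (1.29 to 102) and of 8.09 over the 28 without (1.16 to 159), and these ranges overlap almost wholly.

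Activated cells were compared with naive cells first, to see what DST alone did to these genes. Of the 52 genes, 14 rose and Kif23 fell at an adjusted p under 0.05 (limma on log2(CPM + 1), adjusted over all 12499 tested genes), against 35.3% of all tested genes called higher and 35.3% called lower. The genes that rose were Ccna2, Ccnf, Aurka, Cdca8, Bub1b, Cenpe, Spc25, Kif15, Kif20b, Ncaph, Smc2, Cdca2, Cdc20 and Ect2. The median log2 change over the 52 genes was -0.09, against -0.04 over all tested genes. All 3 activated libraries lay above all 3 naive ones in 16 mitosis genes and below them in 16, against 38.1% and 37.5% of all tested genes. The fit pools the spread of all 12 libraries, tolerized ones included. With only the activated and naive libraries in the fit, 13 mitosis genes were called lower in activated cells (34.6% of all genes), namely Ccnb2, E2f8, Plk1, Cenpf, Casc5, Kif23, Nusap1, Hmmr, Mki67, Ube2c, Cdca3, Racgap1 and 2810417H13Rik, and without tolerized library 3 the count was 10. The count of 10 stands without the share of all genes in its fit. The calls of Bub1b, Cenpe and Spc25 were lost without naive library 1 or 2, among others (highest adjusted p = 0.0906, Spc25).

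Tolerized against naive cells, 29 of the 52 genes rose and Kif23 fell, against 37.4% and 35.9% of all tested genes, with a median log2 change of 1.35 against -0.01 over all. Beside the 14 genes named for activated cells, the ones that rose were Cdk1, Ccnb1, Foxm1, Melk, Aurkb, Bub1, Mad2l1, Nuf2, Ndc80, Kif11, Kif22, Kif4, Tpx2, Top2a and Ncapg. The 3 comparisons with naive cells share the naive libraries. The count was 48 without tolerized library 1, which was low in these genes, and 19 to 22 in a fit of the tolerized and naive libraries alone or without tolerized library 2 or 3, and the median was 0.62 without tolerized library 3. The count was 20 without naive library 1 or 2. These counts stand without the share of all genes in each fit, so they are not read as particular to the mitosis genes. With all 12 libraries that share was 37.4%. Kif23 lost its call without naive library 2 or 3 or tolerized library 1 or 2 (highest adjusted p = 0.0943).

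Inflamed against naive cells, 12 of the 52 genes rose and 3 fell, against 36.9% and 35.5% of all tested genes, with a median log2 change of -0.28 against -0.01 over all. The genes that rose were Ccna2, Ccnf, Aurka, Cdca8, Bub1b, Spc25, Kif20b, Ncaph, Smc2, Cdca2, Cdc20 and Ect2, and those that fell were Cenpa, Kif23 and Smc4. In a fit of the inflamed and naive libraries alone 17 were called lower, and the count was 8 and 11 without tolerized library 1 and 3. Without naive library 1 the genes called higher were 7. These counts, and those under the other scaling below, stand without the share of all genes in each fit. With all 12 libraries that share was 36.9% higher and 35.5% lower, so the counts are not read as particular to the mitosis genes. Under scaling by library size alone, which shifts the median of all genes by -0.26 to -0.32 against naive cells and takes the share of calls that are higher from 49.97%, 51.0% and 51.0% to 39.1%, 39.6% and 38.6% in activated, tolerized and inflamed cells, 6 mitosis genes were called higher and 5 lower in inflamed cells.

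**Figure D3:**
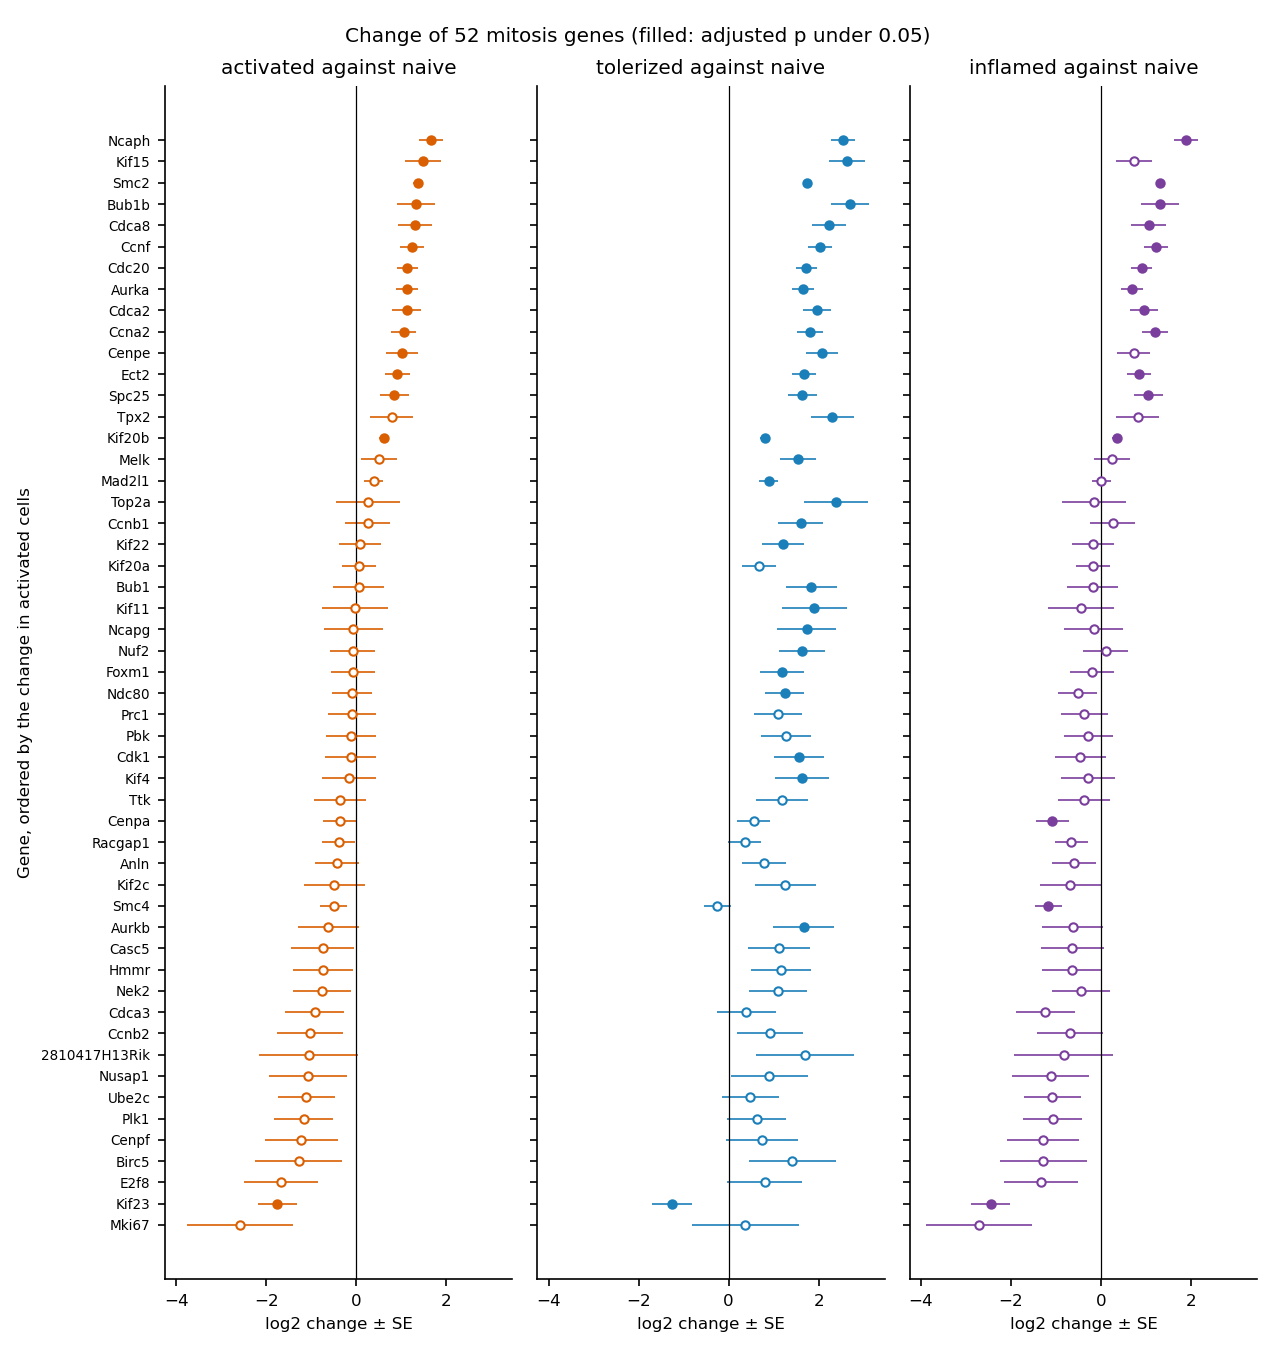
Log2 change (points) with its standard error (bars) of each mitosis gene in activated, tolerized and inflamed cells against naive cells, n = 3 libraries a group, ordered by the change in activated cells. Filled points passed an adjusted p of 0.05: 15, 30 and 15 genes in the 3 panels.

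The tolerized and activated groups addressed the effect of adding anti-CD154 to DST. None of the 52 genes was called, as none of all 12499 tested genes was (0% higher and 0% lower), although the fitted change was positive in 52 of 52, with a median log2 change of 1.34 against 0.01 over all. At an unadjusted p under 0.05 there were 45 of the 52 and 531 of all tested genes, and the smallest adjusted p of a mitosis gene was 0.957. limma-voom called 0 of the 52 as well. All 3 tolerized libraries lay above all 3 activated ones in 22 of the 52 genes, against 4.22% of all tested genes. Without tolerized library 1, 65 genes were called in all and 14 of them were mitosis genes, all higher: Cdk1, E2f8, Nek2, Pbk, Aurkb, Bub1, Casc5, Nuf2, Kif11, Kif2c, Top2a, Mki67, Ncapg and 2810417H13Rik. Tolerized library 1 was the lowest of its group in all 14, so its removal kept only the higher tolerized libraries. The median was 1.86 without that library and 0.70 without tolerized library 3.

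The inflamed and tolerized groups addressed the effect of adding LPS. Cenpa, Kif15 and Smc2 fell and none of the 52 rose, against 1.12% lower and 1.66% higher of all tested genes. The fitted change was negative in all 52, with a median of -1.54 against -0.01 over all, and 49 had an unadjusted p under 0.05. Each of the 3 calls was lost without some single library (highest adjusted p = 0.170, Smc2) and in a fit of the inflamed and tolerized libraries alone. Without tolerized library 1, 42 mitosis genes were called lower among 338 genes called lower, and without tolerized library 3 the median was -0.77. Tolerized library 1 was the lowest of its group in all 42, so its removal kept only the higher tolerized libraries. In inflamed libraries 1, 2 and 3 the neutrophil markers summed to 332, 140 and 16.2 CPM, led by S100a9 at 122.5, 48.8 and 6.26 CPM. The dendritic cell markers summed to 353, 311 and 244 CPM there, against 79.2, 92.2 and 116 CPM in tolerized libraries 1, 2 and 3. Of these 10 markers 5 had a positive fitted change and 1 was called higher. The part of both lists in the result was not tested. Inflamed against activated cells, none of the 52 was called, against 1.54% higher and 0.384% lower of all tested genes, 1 had an unadjusted p under 0.05 (1250 of all tested genes), limma-voom called 0, and the median was -0.13.

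Among the cyclins and CDK1, the kinase and partners that drive entry into mitosis, Ccna2 is the cyclin of S and G2 phase (chromosome 3, 36564865 to 36573038). Ccna2 stood at 15.7, 15.8 and 24.3 CPM in naive, 42.2, 36.9 and 37.9 in activated, 44.6, 59.2 and 111 in tolerized and 46.8, 37.0 and 45.8 in inflamed libraries. All 9 libraries exposed to antigen lay above the naive ones, and it rose by 1.06 ± 0.28 (log2 ± SE, adjusted p = 0.0064) in activated, 1.81 ± 0.28 (0.000197) in tolerized and 1.19 ± 0.28 (0.00293) in inflamed cells. Ccnf, an F-box protein that marks targets for destruction, stood at 3.15, 2.94 and 4.25 CPM in naive, 11.1, 8.93 and 8.45 in activated, 12.2, 13.8 and 28.6 in tolerized and 10.4, 8.66 and 8.82 in inflamed libraries. Ccnf rose by 1.24 ± 0.27, 2.03 ± 0.27 and 1.22 ± 0.27 in the same order of groups. Ccnb2, a cyclin of mitosis, stood at 1.65, 1.96 and 3.91 CPM in naive libraries, at 0.506 to 0.853 in activated ones and at 0.798, 4.22 and 26.7 in tolerized ones. In tolerized libraries 1, 2 and 3 Cdk1 had 2.24, 9.33 and 23.9 CPM and Ccnb1 had 4.90, 9.42 and 24.9 CPM. Both rose against naive cells there (adjusted p = 0.0275 and 0.0136). Both calls were lost without naive library 1 or 2 and in the fit of the tolerized and naive libraries alone. The call of Cdk1 was also lost without tolerized library 2 or 3.

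Foxm1 and E2f8 encode transcription factors of the cycle, an activator of late genes and a repressor of E2F targets. Foxm1 stood at 5.92, 5.79 and 8.47 CPM in naive, 5.98, 5.78 and 6.92 in activated, 6.496, 14.6 and 44.6 in tolerized and 5.14, 5.35 and 6.46 in inflamed libraries. Its rise in tolerized cells (log2 1.20 ± 0.49, adjusted p = 0.0455) was lost on leaving out each library but tolerized 1. E2f8 stood at 1.70, 1.81 and 5.43 CPM in naive, 0.072, 0.133 and 0.225 in activated, 0.380, 5.42 and 27.9 in tolerized and 0.642, 0.506 and 0.223 in inflamed libraries. All activated and inflamed libraries lay below the naive ones, on few reads (2 in activated library 1, the lowest of all values). No change passed the test in the fit of all 12 libraries (activated -1.68 ± 0.83, adjusted p = 0.0897), but E2f8 was called lower in the fit of the activated and naive libraries alone.

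Of the mitotic kinases, Aurka, the kinase of the spindle poles, stood at 2.39, 3.16 and 5.30 CPM in naive, 9.40, 9.51 and 7.46 in activated, 10.8, 11.5 and 17.5 in tolerized and 6.48, 5.37 and 6.83 in inflamed libraries. It rose by 1.13 ± 0.24, 1.65 ± 0.24 and 0.69 ± 0.24, the last at adjusted p = 0.0247 and lost without naive library 1 or 2 or inflamed library 1 or 3. Plk1, a kinase with roles from entry to exit, stood at 2.94, 2.99 and 6.45 CPM in naive, 1.04, 0.906 and 1.65 in activated, 1.37, 5.78 and 25.4 in tolerized and 1.19, 1.499 and 1.29 in inflamed libraries. For Plk1 all activated and inflamed libraries lay below all naive ones, and no change passed the test in the fit of all 12 libraries. In the fit of the activated and naive libraries alone Plk1 was called lower. Of Nek2, Melk and Pbk, Melk was called in the fit of all 12 libraries (tolerized against naive 1.54 ± 0.40, adjusted p = 0.005), and Pbk and Nek2 were called higher there without tolerized library 1. That library was the lowest of its group in Pbk and Nek2.

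The chromosomal passenger complex corrects the attachment of chromosomes and guides cleavage, with Aurkb as its kinase and Birc5 (survivin; chromosome 11, 117849237 to 117855743) and Cdca8 (borealin) as subunits. Birc5 stood at 4.81, 8.58 and 27.6 CPM in naive, 6.30, 2.29 and 3.66 in activated, 4.67, 36.9 and 139 in tolerized and 2.39, 3.91 and 5.69 in inflamed libraries. Tolerized library 1 lay below all naive libraries and tolerized libraries 2 and 3 above them, and no change passed the test in the fit of all 12 libraries (tolerized 1.41 ± 0.96, adjusted p = 0.206). Cdca8 stood at 2.48, 2.46 and 5.19 CPM in naive, 12.0, 10.8 and 6.39 in activated, 10.9, 16.8 and 34.8 in tolerized and 7.28, 7.87 and 8.10 in inflamed libraries, and rose by 1.31 ± 0.38, 2.23 ± 0.38 and 1.05 ± 0.38. Aurkb rose in tolerized against naive cells (1.67 ± 0.68, adjusted p = 0.0439), a call lost on leaving out any of 10 libraries. The inflamed call of Cdca8 (adjusted p = 0.0272) was lost without naive library 1 or 2 or any inflamed library.

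The spindle checkpoint holds anaphase until all chromosomes are attached. Mad2l1, which binds Cdc20 to inhibit it, stood at 13.8, 12.8 and 12.9 CPM in naive, 15.5, 19.8 and 17.6 in activated, 18.1, 24.0 and 36.8 in tolerized and 12.0, 14.0 and 13.8 in inflamed libraries. It rose in tolerized cells (0.89 ± 0.21, adjusted p = 0.00296), and its change in activated cells was 0.39 ± 0.21 (0.116). Bub1b stood at 1.28, 1.67 and 4.07 CPM in naive, 7.24, 7.86 and 5.64 in activated, 9.61, 18.3 and 39.3 in tolerized and 6.79, 7.01 and 6.41 in inflamed libraries. Bub1b rose by 1.32 ± 0.42, 2.69 ± 0.42 and 1.30 ± 0.42, the call in inflamed cells being lost without naive library 1 or 2. The kinase Bub1 rose in tolerized against naive cells (1.83 ± 0.57), and Ttk, the kinase MPS1, was not called in the fit of all 12 libraries.

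At the centromere, Cenpe is a kinesin that moves chromosomes to the plate and Cenpa the histone H3 variant that marks the site. Cenpe stood at 3.44, 4.30 and 6.22 CPM in naive, 11.6, 9.43 and 9.79 in activated, 14.7, 16.0 and 46.5 in tolerized and 7.37, 8.82 and 8.27 in inflamed libraries. It rose in activated (1.02 ± 0.36) and tolerized cells (2.07 ± 0.36), and stood at 0.72 ± 0.36 in inflamed cells (adjusted p = 0.0923). Cenpa stood at 10.1, 9.82 and 12.1 CPM in naive, 6.95, 9.35 and 8.12 in activated, 8.17, 14.9 and 33.5 in tolerized and 4.19, 5.24 and 4.15 in inflamed libraries. Every inflamed library lay below every other one, and Cenpa fell against naive (-1.08 ± 0.37, adjusted p = 0.0212) and against tolerized cells (-1.64 ± 0.37, 0.0419), calls lost without naive library 3 or inflamed library 1 or 3 in the first case and without 9 of the 12 libraries in turn in the second. Of the outer kinetochore genes, Spc25 rose in all 3 groups against naive and Nuf2 and Ndc80 of the same complex in tolerized cells, while Casc5 (KNL1) and Cenpf were not called in the fit of all 12 libraries. The call of Ndc80 was lost without naive library 1 or 2. Nuf2 and Ndc80 were not called between tolerized and activated cells.

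Among the 8 kinesins, motors of the spindle and midzone, the levels ran in opposite directions. Kif20b stood at 20.6, 20.1 and 20.8 CPM in naive, 28.8, 32.1 and 34.8 in activated, 35.5, 32.8 and 41.3 in tolerized and 24.6, 26.2 and 29.03 in inflamed libraries, with no overlap between naive and any other group. It rose by 0.61 ± 0.11, 0.80 ± 0.11 and 0.36 ± 0.11, the last being lost without inflamed library 3 and under scaling by library size alone (adjusted p = 0.773). Kif23, the motor subunit of centralspindlin (chromosome 9, 61917277 to 61946810), stood at 36.4, 36.3 and 38.6 CPM in naive, 6.70, 10.6 and 15.2 in activated, 7.41, 13.6 and 31.8 in tolerized and 5.504, 8.72 and 4.30 in inflamed libraries. All 9 libraries exposed to antigen lay below the naive ones, and Kif23 fell by 1.75 ± 0.44 (adjusted p = 0.00441), by 1.26 ± 0.44 (0.023) and by 2.45 ± 0.44 (0.000488) in activated, tolerized and inflamed cells. Kif15 stood at 1.46, 1.97 and 4.51 CPM in naive, 10.4, 8.07 and 7.54 in activated, 13.8, 14.7 and 39.9 in tolerized and 3.58, 4.69 and 5.91 in inflamed libraries, and fell in inflamed against tolerized cells (-1.91 ± 0.40, adjusted p = 0.0297). Kif11, Kif22 and Kif4 rose in tolerized against naive cells, each call being lost without naive library 1 or 2 or tolerized library 2 or 3. Kif2c and Kif20a were not called in the fit of all 12 libraries. Without tolerized library 1 both were called higher in tolerized against naive cells, but that library was the lowest of its group in both.

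Of the factors that bundle or nucleate spindle microtubules, Tpx2, an activator of Aurora A, stood at 2.33, 2.13 and 4.85 CPM in naive, 5.58, 6.90 and 5.08 in activated, 9.23, 13.9 and 47.5 in tolerized and 6.97, 6.17 and 4.79 in inflamed libraries. It rose in tolerized cells (2.31 ± 0.47, adjusted p = 0.00127), while its change in activated cells was 0.79 ± 0.47 (0.156). Prc1, which bundles the midzone, stood at 3.87, 3.52 and 6.74 CPM in naive, 3.31, 4.77 and 4.67 in activated, 3.99, 9.15 and 31.7 in tolerized and 2.94, 3.74 and 3.23 in inflamed libraries. In the limma fit of all 12 libraries Prc1, Nusap1 and Hmmr were not called, though limma-voom called Prc1 higher in tolerized against naive cells. Nusap1 had the widest gap between tolerized libraries 3 and 2 of all 52 genes, a ratio of 7.80.

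The genes of chromosome structure held both the most abundant and the most variable ones. Smc4 and Smc2 are the core ATPases of condensin. Smc4 (chromosome 3, 69004738 to 69034623) stood at 414, 390 and 421 CPM in naive, 189, 288 and 438 in activated, 250, 321 and 505 in tolerized and 161, 204 and 181 in inflamed libraries. Its inflamed libraries lay below the naive ones (-1.17 ± 0.29, adjusted p = 0.00405), and its activated ones spread from below to above them (-0.50 ± 0.29, 0.143). Smc2 (chromosome 4, 52439221 to 52488365) stood at 37.3, 36.3 and 36.2 CPM in naive, 92.4, 97.2 and 98.4 in activated, 113, 119 and 146 in tolerized and 89.0, 86.9 and 101 in inflamed libraries, so that the partner of Smc4 in the same complex did not share its pattern. Smc2 rose by 1.37 ± 0.10, 1.75 ± 0.10 and 1.31 ± 0.10 against naive cells, at adjusted p = 9.2e-07, 1.79e-07 and 9.88e-07. Of the other condensin genes, Ncaph rose in all 3 groups (1.67 ± 0.27, 2.54 ± 0.27 and 1.89 ± 0.27) and Ncapg in tolerized cells (1.74 ± 0.65). The call of Ncapg was lost without naive library 1 or 2 or tolerized library 2 or 3.

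Top2a, the topoisomerase that untangles sister chromatids, and Mki67, the coat of mitotic chromosomes widely used as a marker of cycling cells, were singled out after their values were seen. Top2a stood at 7.31, 8.35 and 18.4 CPM in naive, 11.2, 16.0 and 11.7 in activated, 16.3, 57.0 and 216 in tolerized and 7.83, 12.6 and 7.90 in inflamed libraries. Mki67 (chromosome 7, 135689784 to 135716450) stood at 19.7, 24.3 and 51.2 CPM in naive and 4.50, 5.72 and 1.59 in inflamed libraries. Tolerized libraries 2 and 3 were 16.4 and 102 times as high as tolerized library 1 for Mki67. Its change in tolerized against naive cells was 0.37 ± 1.18 (adjusted p = 0.787) in the fit of all 12 libraries. The naive libraries lay above all activated and inflamed ones for Mki67, with fitted changes of -2.59 ± 1.18 (adjusted p = 0.0696) and -2.72 ± 1.18 (0.0574). Both values missed the threshold in the fit of all libraries, and each passed it in the fit of the 2 groups alone.

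**Figure D4:**
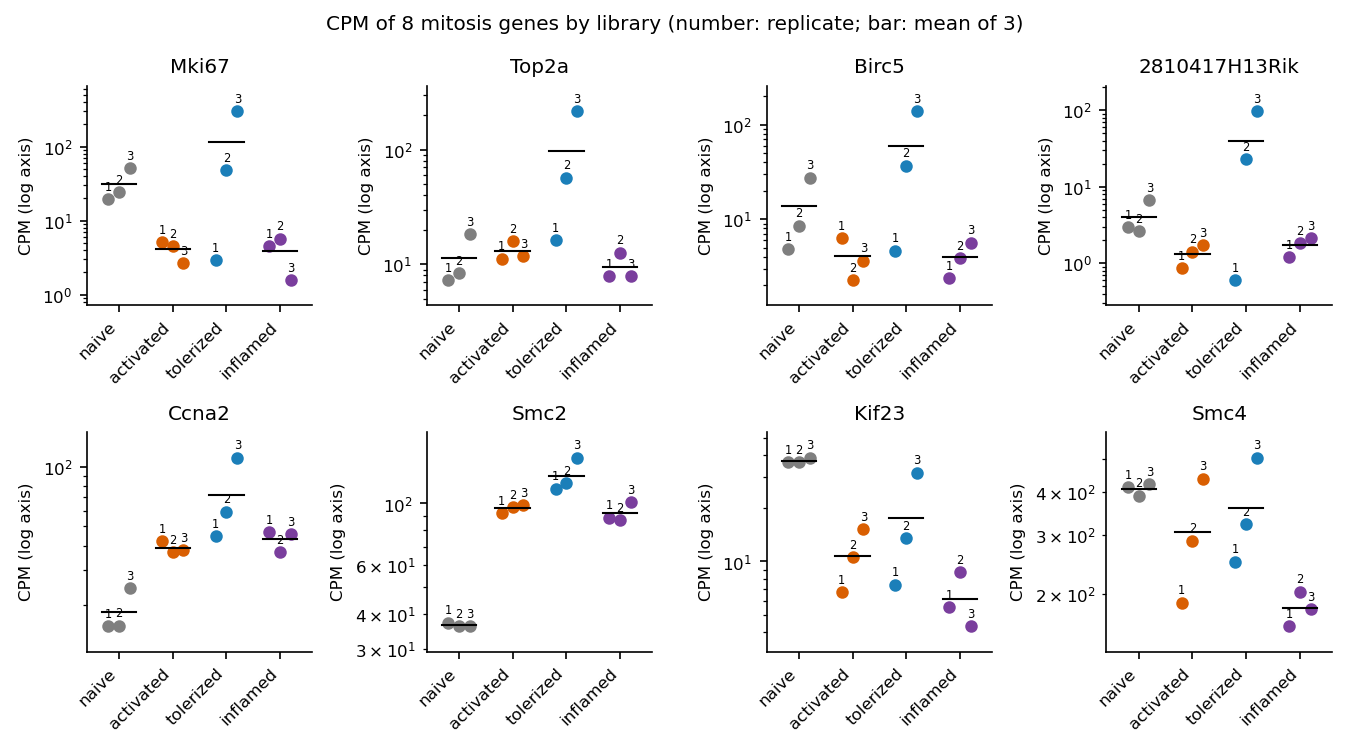
CPM (log axes, ranges differ between panels) of 8 mitosis genes in each library, with the replicate number above each point and the mean of 3 libraries as a bar. Mki67, Top2a, Birc5 and 2810417H13Rik (upper row) spread most in tolerized cells, Ccna2 and Smc2 lie above naive in all 9 other libraries, and Kif23 lies below.

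Among the factors of ubiquitin ligases, Cdc20, the activator of the anaphase-promoting complex, stood at 8.07, 8.56 and 10.2 CPM in naive, 21.7, 22.2 and 18.4 in activated, 22.5, 29.4 and 47.7 in tolerized and 14.98, 17.95 and 19.9 in inflamed libraries. Cdc20 rose by 1.13 ± 0.23, 1.72 ± 0.23 and 0.90 ± 0.23, and its naive libraries overlapped with no other group. Cdca3, a trigger of entry into mitosis, stood at 2.57, 2.66 and 4.12 CPM in naive, 1.04, 1.20 and 1.16 in activated, 0.608, 3.82 and 18.4 in tolerized and 1.04, 0.526 and 0.646 in inflamed libraries, with no call in the fit of all 12 libraries. Ube2c, the conjugating enzyme of that complex, was not called in the fit of all 12 libraries either, and both genes were called lower in activated and inflamed cells in the fits of those and the naive libraries alone.

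For cytokinesis, Racgap1, the partner of Kif23 in centralspindlin (chromosome 15, 99620496 to 99651656), stood at 28.7, 29.3 and 30.4 CPM in naive, 20.6, 22.7 and 23.6 in activated, 21.2, 30.2 and 84.5 in tolerized and 16.3, 17.9 and 20.8 in inflamed libraries. The activated and inflamed libraries lay below the naive ones without overlap, yet no change passed the test in the fit of all 12 libraries (-0.39 ± 0.37 and -0.66 ± 0.37). That fit pools the spread of the tolerized libraries, and Racgap1 was called lower in the fit of the activated and naive libraries alone. Ect2, the exchange factor that centralspindlin recruits, stood at 3.65, 4.22 and 4.41 CPM in naive, 8.97, 9.09 and 7.76 in activated, 9.99, 13.3 and 26.0 in tolerized and 7.003, 9.25 and 8.19 in inflamed libraries. Ect2 rose by 0.92 ± 0.27, 1.67 ± 0.27 and 0.84 ± 0.27, the call in inflamed cells being lost without naive library 1 or inflamed library 2. 2810417H13Rik (chromosome 9, 65890323 to 65903551) stood at 2.96, 2.63 and 6.61 CPM in naive, 0.864, 1.41 and 1.72 in activated, 0.608, 22.8 and 96.5 in tolerized and 1.19, 1.85 and 2.11 in inflamed libraries. Its changes had standard errors of 1.10 and no call in the fit of all 12 libraries. In the fit of the activated and naive libraries alone 2810417H13Rik was called lower.

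Per kilobase of exon, Smc4 was the most abundant of the 52 genes in every group, at a mean of 100.1 CPM per kb in naive, 74.7 in activated, 87.8 in tolerized and 44.5 in inflamed cells. The next in naive cells were Kif23, at 10.8 CPM per kb, and Racgap1, at 9.61. In activated and inflamed cells the next were Smc2, at 18.04 and 17.3 CPM per kb, and Ccna2, at 13.9 and 15.4, and in tolerized cells Ccna2, at 25.4, and Smc2, at 23.6. Exons of 13 of the 52 genes overlap another gene in GENCODE M21, and whether counting used the strand is not given in the sources used here, so their levels are uncertain to that extent. The overlap runs from 0.194% of the exon bases of Ccnf to 31.8% of those of Kif20a, whose partner is Cdc23, and takes in Ccna2 (10.4%), E2f8 (15.7%) and Prc1 (21.8%).

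Naive library 3 stood apart from the other 2 naive libraries in these genes. It was the highest naive library in 48 of 52, against 25.5% of all tested genes, and its ratio to naive library 1 had a median of 2.19 and was above 2 in 30 of 52, against 8.81% of all genes. The ratio was highest for Birc5, at 5.74, and below 1 for Mad2l1, Spc25 and Smc2. The 17 erythroid markers summed to 1197, 1062 and 2566 CPM in naive libraries 1, 2 and 3, and to 24.8 to 315 CPM in the 9 other libraries. The monocyte and macrophage markers summed to 933, 2308 and 2369 CPM in the naive libraries, and none of these markers was at 0 reads there. The leading erythroid genes, the near-identical globin copies Hbb-b1 and Hbb-b2, have almost equal values in every library (527, 459 and 1109 CPM each in naive libraries 1 to 3), so these reads appear to be counted for both and the erythroid sums hold them 2 times. B cell and plasma cell markers summed to 1048, 1450 and 1550 CPM in naive libraries 1, 2 and 3, and neutrophil markers to 18.9, 20.6 and 26.3 CPM. These lists and the erythroid and monocyte and macrophage markers were highest in naive library 3, and their part in the result was not tested. The T cell genes, at 6375, 6338 and 5215 CPM, and the dendritic cell, NK cell and platelet markers were not highest there. Without naive library 3 the counts against naive cells were 13 higher and 1 lower in activated, 28 and 0 in tolerized and 13 and 2 in inflamed cells, and the median change in activated cells turned to 0.16. The counts stand without the shares of all genes in that fit.

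Other genes of mitosis were counted in the same fit. Of 107 tested genes on 6 further lists (kinetochore, checkpoint, anaphase-promoting complex, spindle and cytokinesis, the switch from G2 to M, and cohesin with condensin), 41 rose and 11 fell in activated, 70 and 6 in tolerized and 38 and 12 in inflamed cells against naive, with medians of 0.34, 0.88 and 0.15. Of all tested genes 35.3%, 37.4% and 36.9% were called higher and 35.3%, 35.9% and 35.5% lower, so that the shares called higher, 38.3%, 65.4% and 35.5%, lay near those of all genes in activated and inflamed cells. Of 14 subunits of the anaphase-promoting complex, 9 rose in each group and 2, 2 and 1 fell (64.3% higher, against the shares of all genes just given). The subunit Anapc1 had 167 to 194 CPM in naive against 365, 328 and 314 CPM in tolerized libraries 1, 2 and 3. Wee1, the kinase that restrains CDK1, rose by 3.07 ± 0.16 in activated, 3.39 ± 0.16 in tolerized and 2.82 ± 0.16 in inflamed cells, from 1.48, 1.49 and 2.18 CPM to 17.4 to 31.9 CPM. Ckap2, a spindle protein, rose from 0.827, 0.927 and 1.15 CPM to 9.94 to 19.2 CPM over the 9 other libraries, and Trip13, which disassembles the checkpoint complex, from 1.28, 1.51 and 2.13 CPM to 9.14 to 18.9 CPM.

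Of 45 genes of DNA replication, which act a stage earlier, 36 rose in activated, 41 in tolerized and 35 in inflamed cells and none fell, against 35.3%, 37.4% and 36.9% of all tested genes called higher, and 9, 4 and 10 did not pass the test, with medians of 1.16, 1.56 and 1.03. Mcm5, a subunit of the replicative helicase, stood at 65.3, 63.7 and 69.1 CPM in naive, 348, 343 and 263 in activated, 383, 417 and 381 in tolerized and 243, 239 and 249 in inflamed libraries. The list summed to 3959, 4431 and 4586 CPM in tolerized libraries 1, 2 and 3, against 732, 1177 and 2889 CPM for the 52 mitosis genes, with tolerized library 1 lowest in both. Over the activated libraries the 52 mitosis genes summed to 606 to 857 CPM. Without Smc4 the sums were 417, 438 and 419 CPM in activated libraries 1, 2 and 3 and 483, 856 and 2385 CPM in the tolerized ones. Inflamed against tolerized cells, 15 of the 45 fell, against 1.12% of all tested genes, among them Mcm5 (-0.69 ± 0.10, adjusted p = 0.00417), and tolerized against activated cells none was called.

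**Figure D5:**
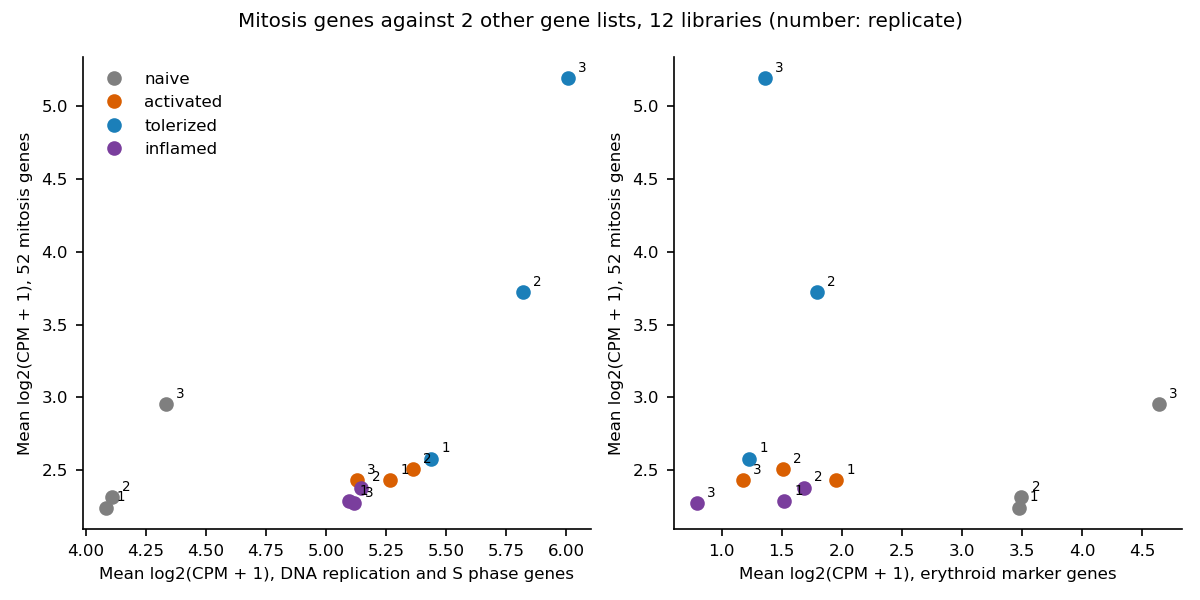
Mean log2(CPM + 1) of the 52 mitosis genes (vertical axes) against that of 45 replication genes (left) and 17 erythroid markers (right), 1 point a library, coloured by group and numbered by replicate. Tolerized libraries 2 and 3 stand above all others in mitosis genes; naive library 3 stands farthest right in erythroid markers.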

How the data were processed

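The deposited table held, per its header, 1 count of reads per gene and library, as whole numbers with commas that the authors did not normalize, beside each gene's exon length. The submitters' processing notes name TopHat2, bedtools, DESeq, mm10 and GRCm38, without versions. The extraction text in the labels also speaks of embryonic fibroblasts, which are not the sorted T cells. CPM were computed with library sizes adjusted by TMM (trimmed mean of M values, factors 0.897 to 1.22). Genes with at least 0.258 CPM (10 reads at the median library size) in 3 libraries and 15 reads in all were tested, 12499 in number, all 52 mitosis genes among them. The commas were removed, and no count model was used as the main test. Instead log2(CPM + 1) was fitted with limma 3.58.1 in R 4.3.3, in 1 fit of 12 libraries with mean-variance trend. The p-values were adjusted over all tested genes (Benjamini-Hochberg). The fit was tested on simulated reads that had the same spread in every group, so that test does not cover the wider spread of the tolerized libraries in the mitosis genes. No column was left out. Members, lists and tests were chosen with earlier results of these data known. Full values were given for the 2 genes of each role with the highest mean CPM, for 2 genes of a further list those with the smallest adjusted p in tolerized against naive cells, and promoters for up to 6 of the first that hold CHR letters. Other genes named with values were chosen after their values were seen. Numbers shared across groups were checked for pairing: same-numbered libraries deviated together in tolerized and activated (correlations of 0.190 to 0.602 over 3 pairs) and in inflamed and activated cells (0.146 to 0.636), not in the other comparisons. Of the tolerized libraries 3 of 3 correlated best with the activated library of the same number, but of the inflamed libraries only 1 of 3. Positions and promoters came from RefSeq on GRCm38.p6, overlaps from GENCODE M21 on the same assembly. Of 624 values, 35 rested on under 20 reads.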

Additional observations from a re-analysis of the deposited data

How the results depend on the processing

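Each count of called mitosis genes was recomputed under 11 alternatives and without each library in turn. Most counts stand without the share of all genes in each fit. They show how the calls depend on the fit and are not read against all genes. Leaving out each library in turn, the counts ran from 11 to 16 higher and 1 to 10 lower in activated against naive cells, 20 to 48 and 0 to 1 in tolerized against naive, 7 to 15 and 2 to 11 in inflamed against naive, 0 to 14 higher in tolerized against activated, and 0 to 42 lower in inflamed against tolerized. With only the 2 groups compared in the fit, the counts were 13 lower in activated and 17 lower in inflamed cells, 19 higher in tolerized cells, all against naive, and 0 lower in inflamed against tolerized. For inflamed against tolerized, 148 of all 12499 tested genes were called there in either direction. Adding a replicate block to the fits of 2 groups, chosen after seeing the data, gave 12 lower in activated and 16 lower in inflamed cells against naive. In inflamed against tolerized it gave 0, as it did for all 12499 tested genes. In a fit of all 12 libraries the replicate block changed no count by over 1.5 times (3 lower in inflamed against tolerized, 0 in tolerized and in inflamed against activated), pairing included. A pseudocount of 0.1 CPM gave 2 lower in activated against naive cells. Scaling by library size gave 6 higher and 5 lower in inflamed against naive. The 3 lower in inflamed against tolerized cells became 1 with that scaling or limma-voom, 0 with no filter and 5 with 1 weight per group. In the same order 2.52%, 2.36%, 1.82% and 2.73% of all genes were called in either direction. With only genes of at least 5 CPM the median change against naive cells turned to 0.27 in activated and 0.0083 in inflamed cells, and leaving out each library in turn it ran from -0.23 to 0.16 in activated cells. Of the called genes, 12 of 15, 20 of 30, 8 of 15 and 0 of 3 kept the call without each library in turn in activated, tolerized and inflamed against naive and inflamed against tolerized cells. Beyond fewer libraries or genes in the fit, the cause of these shifts was not tested. Depth limits 13 of the 52 genes, which had under 20 reads in some library.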

Other observations

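Pairs of CCAAT letters in 1 orientation that start 31 to 34 bases apart stood in 8 of the 44 promoter windows, or 18.2%. The share was 0.881% of all 27025 windows and 1.36% of the 12978 windows of genes in the count table. The genes were Cdk1, Ccnb1, Ccnb2, Aurka, Cdca8, Spc25, Hmmr and Ube2c, and the spacing was chosen after the windows were seen. At least 2 CCAAT stood in 21 windows, or 47.7%, against 10.5% of all and 12.6% of those of genes in the count table.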
